A study of Mus musculus with 22 samples.

Results

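S100a8, S100a9, Ltf, Lcn2, Stfa1, Slpi, Saa3 and Chil3 are 8 mouse genes that encode alarmins, iron-binding proteins, protease inhibitors and related host defence proteins of neutrophils and stressed epithelia. They were chosen by name, and selected on their measured signal, which was much higher in bladders exposed to BBN, a nitrosamine that causes bladder cancer in mice, than in normal bladders. They are 8 of 22911 genes with a symbol on the array, and all 8 were among the 17404 genes tested. Because that BBN difference chose them, it is given below as a description, without a test. The differences among the BBN groups and the correlations between genes were not used in the choice.

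The study read 22 samples of total RNA from bladders of mice at 8 months of age, 1 array each, and asked how a Trp53 mutation placed in basal or luminal bladder cells alters BBN-induced tumours. BBN was given in drinking water for 24 weeks to all groups except the normal mice, which were wild type and received neither BBN nor tamoxifen (3 arrays). The Krt5-Cre (2 arrays) and Upk2-Cre (2) groups carried Krt5-CreERT2 or Upk2-CreERT2 with the LSL-RFP reporter and received tamoxifen and BBN. The mutant groups Krt5-Cre R270H (3 arrays), Krt5-Cre R172H (4 arrays), Upk2-Cre R270H (2 arrays) and Upk2-Cre R172H (3 arrays) had the same Cre, reporter, tamoxifen and BBN, with 1 Trp53R270H/+ or Trp53R172H/+ allele. The Trp53 het group (3 arrays) is labelled with the genotype Trp53R270H/+, while its titles read Trp53+/-, and received BBN but no tamoxifen. Krt5 is a basal and Upk2 a luminal urothelial gene, and the inducible Cre acts only in cells that express its driver and only after tamoxifen. The labels call the normal tissue urothelium and the BBN tissue bladder tumour, but RNA was extracted from whole bladders by the protocol.

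Neutrophils store antimicrobial proteins in granules and carry large amounts of the calcium-binding alarmins S100A8 and S100A9 in the cytosol. Epithelia make many of the same proteins when they are wounded, infected or turning squamous, so these genes mark both infiltrating cells and altered epithelium. Their transcription in epithelia and myeloid cells is known to respond to interleukin 1, interleukin 6 family and interleukin 17 family signals through NF-kB, STAT3 and C/EBP factors. In RNA of whole bladders, fewer cells of a type and less RNA per cell cannot be told apart.

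The start regions of the genes are shown for the pair whose levels ran most closely together (S100a8 and S100a9) and for the 2 genes with a C/EBP-like sequence (Ltf and Slpi). Each sequence runs 5′ to 3′ from 250 bases before to 50 bases after the annotated start, from RefSeq on GRCm38.p6, and capitals mark a C/EBP-like match in Ltf and Slpi and a TATAAA match in S100a8 and S100a9.
S100a8 (chr3:90668821-90669120, plus strand): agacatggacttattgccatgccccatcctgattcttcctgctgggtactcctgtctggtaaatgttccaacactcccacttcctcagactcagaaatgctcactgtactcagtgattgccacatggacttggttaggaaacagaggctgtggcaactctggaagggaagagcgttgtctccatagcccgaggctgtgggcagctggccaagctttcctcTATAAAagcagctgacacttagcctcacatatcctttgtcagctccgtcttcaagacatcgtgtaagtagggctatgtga
S100a9 (chr3:90695672-90695971, minus strand): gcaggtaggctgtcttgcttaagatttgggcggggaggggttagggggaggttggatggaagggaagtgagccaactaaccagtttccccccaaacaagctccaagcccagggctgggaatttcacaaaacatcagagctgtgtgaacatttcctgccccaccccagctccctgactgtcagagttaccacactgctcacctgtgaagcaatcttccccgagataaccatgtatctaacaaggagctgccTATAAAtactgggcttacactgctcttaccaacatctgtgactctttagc
Ltf (chr9:111019042-111019341, plus strand): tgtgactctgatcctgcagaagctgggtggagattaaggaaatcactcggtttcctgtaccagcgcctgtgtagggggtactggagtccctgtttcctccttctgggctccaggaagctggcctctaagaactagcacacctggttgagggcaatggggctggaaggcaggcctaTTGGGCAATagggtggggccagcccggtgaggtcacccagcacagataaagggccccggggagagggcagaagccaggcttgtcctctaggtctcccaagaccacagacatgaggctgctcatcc
Slpi (chr2:164356458-164356757, minus strand): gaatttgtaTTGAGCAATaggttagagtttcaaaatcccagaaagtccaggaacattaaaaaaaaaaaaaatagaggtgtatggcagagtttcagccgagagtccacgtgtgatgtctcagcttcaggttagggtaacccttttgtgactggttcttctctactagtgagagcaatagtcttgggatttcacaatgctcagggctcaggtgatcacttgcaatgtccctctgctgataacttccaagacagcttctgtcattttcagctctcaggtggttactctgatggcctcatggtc

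All 8 genes matched 1 such promoter, and both strands were searched for 5 motifs, with overlaps between motifs allowed. The C/EBP-like motif TTNNGCAAT was in 2 of the 8 promoters, starting at -75 in Ltf and -241 in Slpi, and in 2.18% of 32851 mouse promoters of the same length. TATAAA was in S100a8 at -30, in S100a9 at 1 and in Chil3 at -3, and in 13.6% of promoters. The STAT-like motif TTCNNNGAA was in Chil3 and in 8.3% of promoters, while the AP-1-like motif TGANTCA (7.81%) and an NF-kB-like motif (1.63%) were in 0 of the 8. A match is a match of letters and not a site of binding.

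Levels are log2 of the processed signal relative to the 75th percentile of the same array, with 1 unit for each doubling, and are not compared between genes. Between 42.4% and 63.2% of spots on an array were well above background, and no spot was saturated. The normal arrays were on a slide of their own, so the normal group and that slide cannot be told apart. The 19 BBN arrays were read on 2 scanner models, 11 on G2505C and 8 on G2600D, and the normal arrays on G2600D. Sex-linked genes went against the labelled sex on 11 of the 22 arrays, 8 of them BBN arrays. The labels give 1 animal code to both Upk2-Cre arrays and 1 to Trp53 het replicates 1 and 2. The 2 Upk2-Cre arrays nonetheless differed in sex-linked genes, with 0 and 4 Y-linked genes above background, and every other BBN group except Upk2-Cre R270H also held arrays of both kinds. The labels give no other statement on whether arrays of a group came from separate animals, so the spread between arrays may in part be technical.

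**Figure D1:**
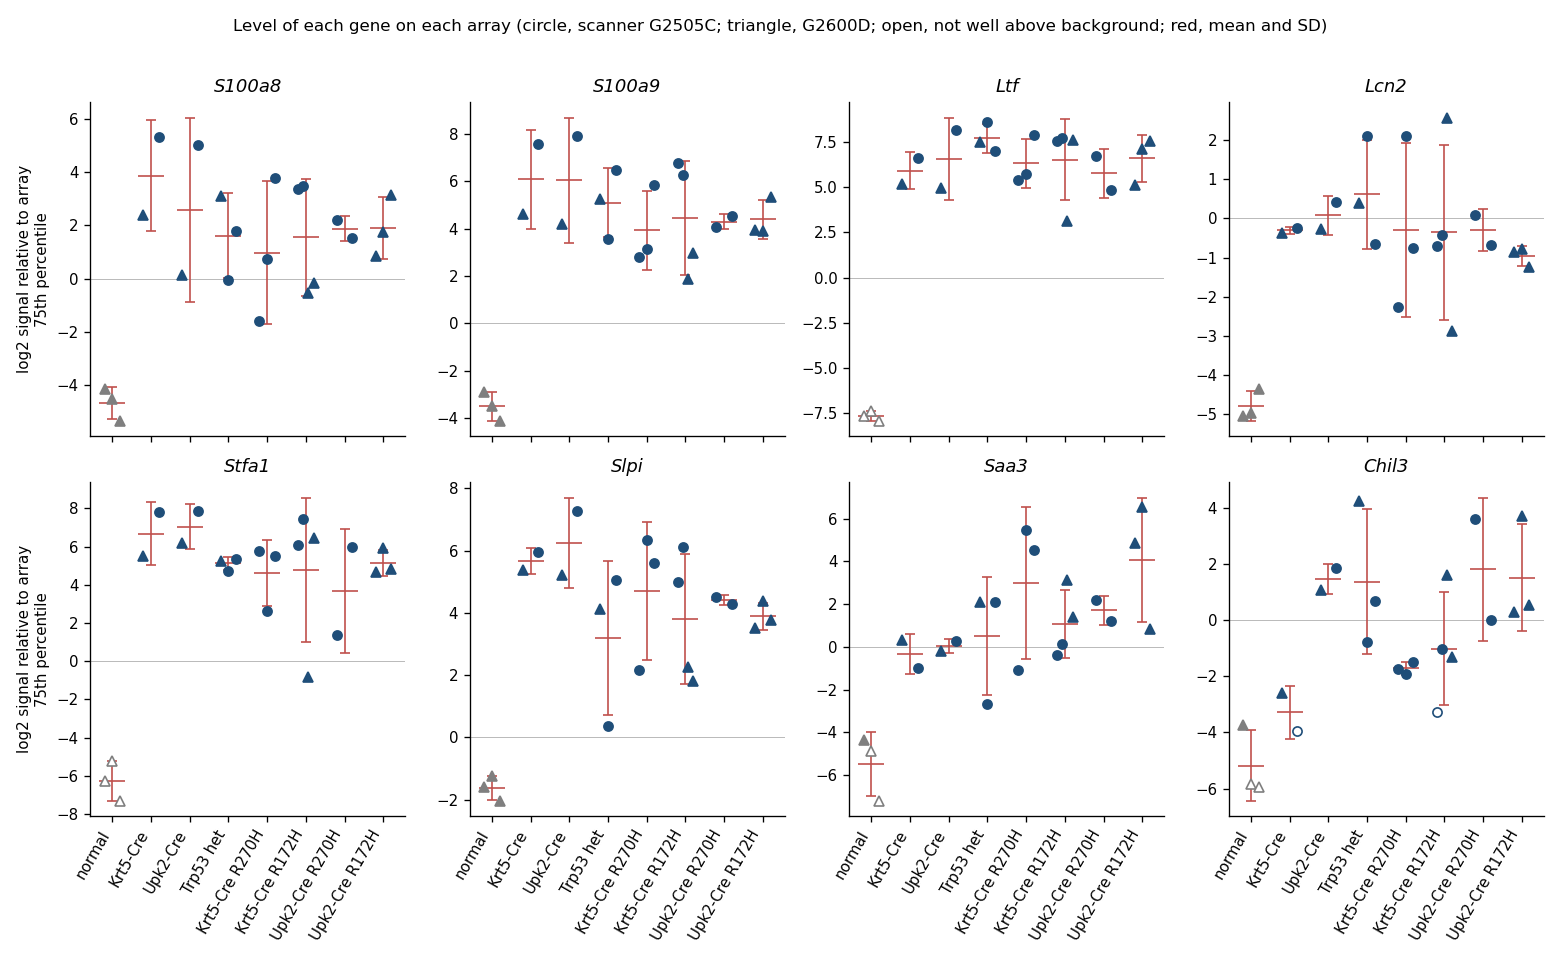
Level of each of the 8 genes on each of the 22 arrays, by group. The vertical axis is log2 signal relative to the array's 75th percentile, open symbols were not well above background, and red marks give the group mean and SD. All BBN arrays lie above all normal arrays for 7 genes, and 18 of 19 do for Chil3. The genes were picked on this difference, so the separation is a description only. Genes with small differences, such as Ager (1.19) and Cd68 (1.31), show it as well. The share of all genes that separate in this way is not given here, nor is it for the separations between BBN groups described below.

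The alarmins S100A8 and S100A9 form the heterodimer calprotectin, which binds zinc and calcium and signals to innate immune receptors. S100a8 read -4.15, -4.53 and -5.34 on the normal arrays. It read 2.40 and 5.33 with Krt5-Cre, 0.13 and 5.03 with Upk2-Cre, and 3.10, -0.07 and 1.80 in Trp53 het bladders. All of these lay far above the normal arrays, and replicates of a group differed by several units. With the mutants it read -1.58, 0.73 and 3.76 (Krt5-Cre R270H), 3.38, 3.49, -0.54 and -0.15 (Krt5-Cre R172H), 2.21 and 1.54 (Upk2-Cre R270H), and 0.83, 1.74 and 3.14 (Upk2-Cre R172H). The lowest BBN array was Krt5-Cre R270H replicate 1, still 2.57 above the highest normal array. The mean of the 7 BBN groups lay 6.72 above the normal mean.

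S100a9 read -2.89, -3.47 and -4.12 on the normal arrays. It read 4.61 and 7.56 with Krt5-Cre, 4.18 and 7.91 with Upk2-Cre, and 5.25, 3.55 and 6.46 in Trp53 het bladders. The high Cre control arrays, replicate 2 of each driver, were the same 2 arrays that were highest for S100a8. With the mutants it read 2.80, 3.12 and 5.85 (Krt5-Cre R270H), 6.76, 6.24, 1.89 and 2.96 (Krt5-Cre R172H), 4.06 and 4.53 (Upk2-Cre R270H), and 3.94, 3.88 and 5.35 (Upk2-Cre R172H). The BBN mean lay 8.39 above the normal mean, and no BBN array came within 4.78 of a normal one. In Krt5-Cre, Upk2-Cre and Krt5-Cre R172H, the higher S100a8 and S100a9 arrays were all read on G2505C and the lower ones on G2600D. In these groups the spread between replicates cannot be told apart from scanner model and slide. In Trp53 het bladders the highest S100a8 array, replicate 1, was read on G2600D.

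Lactoferrin (Ltf) is an iron-binding protein of neutrophil secondary granules and of mucosal secretions. Its probe was not well above background on any normal array (-7.67, -7.39 and -7.92) and was above it on all 19 BBN arrays. It read 5.17 and 6.62 with Krt5-Cre, 4.97 and 8.18 with Upk2-Cre, and 7.49, 8.59 and 6.97 in Trp53 het bladders. All but 1 of the mutant arrays lay in about the same range. They read 5.38, 5.72 and 7.87 (Krt5-Cre R270H), 7.55, 7.72, 3.14 and 7.60 (Krt5-Cre R172H), 6.71 and 4.81 (Upk2-Cre R270H), and 5.09, 7.13 and 7.54 (Upk2-Cre R172H). The low array was Krt5-Cre R172H replicate 3. The BBN mean was at least 4120.3-fold above the normal arrays, a bound set by the lowest signal that counts as well above background on each normal array, and the measured means were 6.47 and -7.66.

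Lipocalin 2 (Lcn2) binds bacterial siderophores and so withholds iron. It read -5.06, -4.97 and -4.37 on the normal arrays and between -2.89 and 2.58 on the BBN arrays, with a median of -0.42. Its 2 extremes lay in 1 group: Krt5-Cre R172H replicate 3, the low array for Ltf, was the highest for Lcn2, and replicate 4 was the lowest. The BBN mean lay 4.58 above the normal mean. A second Lcn2 probe gave a difference of 3.94, but it was well above background on only 10 of the 19 BBN arrays and on 0 of the 3 normal ones.

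Stefin A1 (Stfa1) inhibits cysteine cathepsins. Its probe was not well above background on any normal array (-6.29, -5.20 and -7.29). It read 5.51 and 7.84 with Krt5-Cre, 6.21 and 7.87 with Upk2-Cre, and 5.25, 4.75 and 5.37 in Trp53 het bladders. The 4 Cre control arrays all exceeded the 3 Trp53 het arrays. With the mutants it read 5.76, 2.61 and 5.49 (Krt5-Cre R270H), 6.07, 7.45, -0.84 and 6.43 (Krt5-Cre R172H), 1.37 and 5.97 (Upk2-Cre R270H), and 4.65, 5.91 and 4.84 (Upk2-Cre R172H). Krt5-Cre R172H replicate 3 was again low, as it was for Ltf. The BBN mean was at least 1813.2-fold above the normal arrays (measured means 5.29 and -6.26). Stefin genes are near-identical copies, so a probe of 1 of them may also read the others.

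The secretory leukocyte protease inhibitor (Slpi) blocks neutrophil elastase and is made by squamous and mucosal epithelia and by neutrophils. It read -1.61, -1.25 and -2.04 on the normal arrays, which were all above background. On the BBN arrays it ran from 0.37 (Trp53 het replicate 2) to 7.28 (Upk2-Cre replicate 2), with a median of 4.51. The 4 Cre control arrays lay between 5.22 and 7.28, and 3 of the 12 mutant arrays lay above the lowest of them. The BBN mean lay 6.19 above the normal mean by the brighter probe and 1.81 by the second Slpi probe, so the size depends on the probe.

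Serum amyloid A3 (Saa3) is an acute phase protein made outside the liver by epithelia and macrophages. It read -4.38, -4.88 and -7.21 on the normal arrays, of which 1 was well above background. It read 0.31 and -0.99 with Krt5-Cre, -0.21 and 0.28 with Upk2-Cre, and 2.12, -2.70 and 2.12 in Trp53 het bladders. The 4 Cre control arrays lay closer together than the 3 normal arrays. With the mutants it read -1.07, 5.48 and 4.55 (Krt5-Cre R270H), -0.40, 0.12, 3.15 and 1.38 (Krt5-Cre R172H), 2.19 and 1.22 (Upk2-Cre R270H), and 4.84, 6.52 and 0.85 (Upk2-Cre R172H). Of the 12 mutant arrays, 9 lay above every Cre control array. The BBN mean lay 6.92 above the normal mean.

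Chitinase-like 3 (Chil3, also called Ym1) is a lectin of neutrophils and alternatively activated macrophages. It read -3.73, -5.85 and -5.95 on the normal arrays, of which 1 was above background. It read -2.61 and -3.95 with Krt5-Cre, 1.09 and 1.84 with Upk2-Cre, and 4.24, -0.79 and 0.66 in Trp53 het bladders. It was the only 1 of the 8 genes for which a BBN array, Krt5-Cre replicate 2, fell below a normal array. With the mutants it read -1.74, -1.93 and -1.49 (Krt5-Cre R270H, in order of replicate), -3.29, -1.04, 1.59 and -1.33 (Krt5-Cre R172H), 3.61 and -0.01 (Upk2-Cre R270H), and 0.27, 3.71 and 0.55 (Upk2-Cre R172H). The 7 Upk2-Cre arrays with and without a mutation lay at -0.01 or above, and 8 of the 9 Krt5-Cre arrays lay below -1. The BBN mean lay 5.20 above the normal mean.

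In this contrast 42.7% of all 17404 genes were called by limma at an adjusted p at or under 0.05 (4119 higher, or 23.7%, and 3313 lower, or 19%), so a change by itself sets no gene apart. The median over all genes was 0.13, and -0.01 with quantile scaling, under which 3238 genes were higher and 3739 lower. The 8 genes lay between 4.58 and 14.13, and the order of groups within each gene held little beyond the normal group at the bottom. For S100a8, S100a9, Ltf, Lcn2, Stfa1 and Saa3, no 2 BBN groups next to each other in the order of means differed by more than the larger of their SDs. Such gaps were seen once for Slpi, between Upk2-Cre R270H and Upk2-Cre R172H (0.52, whose arrays overlapped). They were seen once for Chil3, between Krt5-Cre R270H and Krt5-Cre (1.56, whose 3 and 2 arrays did not overlap). The share of all genes with such gaps is not given here. For Chil3, 1 of the 2 Krt5-Cre arrays was not well above background. The highest group was Krt5-Cre for S100a8 and S100a9, Upk2-Cre for Stfa1 and Slpi, Trp53 het for Ltf and Lcn2, Upk2-Cre R172H for Saa3 and Upk2-Cre R270H for Chil3.

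The next question is whether a Trp53 mutation, its allele or its Cre driver moved these genes among bladders that all received BBN. Limma called 0 of the 8 in each of 6 comparisons, where it also called almost nothing else: 2 of 17404 genes (0.0115%) for Krt5-Cre mutants against Krt5-Cre, 1 (0.00575%) for Upk2-Cre mutants against Upk2-Cre, 0 (0%) for the difference of those effects, 1 (0.00575%) for Krt5-Cre against Upk2-Cre mutants, 0 (0%) for R270H against R172H and 0 (0%) for Trp53 het against the Cre controls. Without adjustment, 836, 1094, 578, 922, 1708 and 841 genes had a p under 0.05 in these comparisons, of which 0, 0, 0, 1, 0 and 1 were among the 8. The intervals of most genes span several-fold differences in either direction. A p that misses the threshold does not show that levels were equal.

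**Figure D2:**
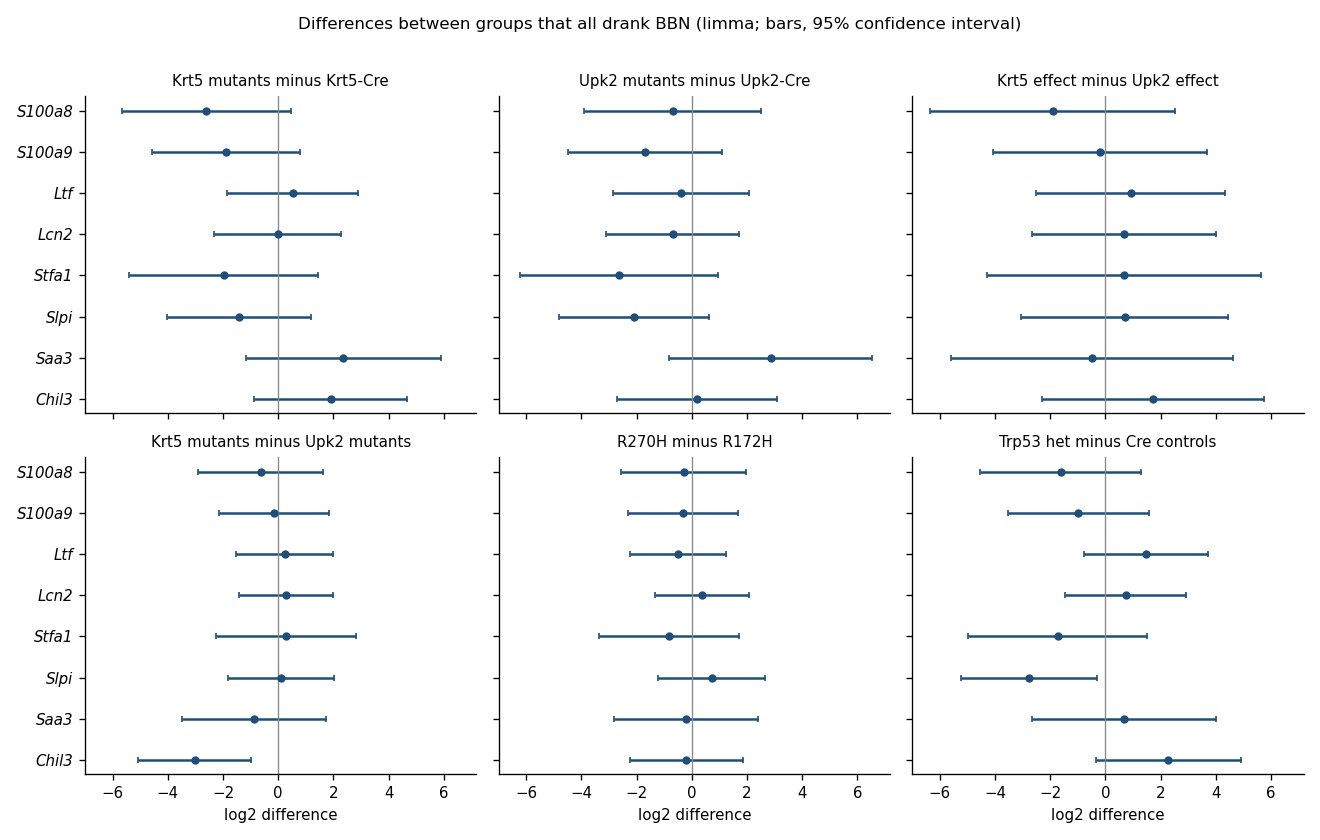
Difference in log2 level for each of the 8 genes in the 6 comparisons among BBN groups. Points are limma estimates and bars 95% confidence intervals. All bars cross 0 except those of Chil3 for Krt5-Cre against Upk2-Cre mutants and of Slpi for Trp53 het against the Cre controls.

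Against Krt5-Cre, the 7 Krt5-Cre mutant arrays read lower for S100a8 by a difference of -2.61 (95% interval -5.67 to 0.46, adjusted p = 0.9997 by limma) and for S100a9 by -1.89 (-4.57 to 0.79). Without Krt5-Cre replicate 2 these differences were -1.14 and -0.42, and without replicate 1 they were -4.08 and -3.37. Stfa1 (-1.97) and Slpi (-1.41) lay on the same side, and Saa3 (2.36) and Chil3 (1.91) on the other. Ltf differed by 0.52 and Lcn2 by -0.02. The median of the 8 was -0.72, against 0.01 over all genes. On the G2600D arrays alone, 1 Krt5-Cre and 2 Krt5-Cre R172H arrays, Slpi was called (-3.33, adjusted p = 0.0228 by limma) among 280 genes called. The lone Krt5-Cre array is assumed there to vary like the other groups, so the call carries no spread of its own group. This setting was chosen after the data were seen.

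Against Upk2-Cre, the 5 Upk2-Cre mutant arrays differed most in Saa3 (2.85, 95% interval -0.83 to 6.54), Stfa1 (-2.64, -6.22 to 0.95) and Slpi (-2.11, -4.83 to 0.61), with adjusted p = 0.856, 0.867 and 0.856 by limma. Without Upk2-Cre replicate 2 the Slpi difference was -1.08. S100a9 differed by -1.70, S100a8 by -0.69, Lcn2 by -0.70, Ltf by -0.40 and Chil3 by 0.19. The median of the 8 was -0.69, against -0.09 over all genes. The mutation effect in Krt5-Cre minus that in Upk2-Cre ran from -1.92 for S100a8 to 1.72 for Chil3, with standard errors between 1.57 and 2.41, and none was called. The S100a8 difference of effects turned to 0.025 on the G2505C arrays alone and to 0.54 without Upk2-Cre replicate 1.

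Between drivers, Chil3 was 3.03 log2 units lower in Krt5-Cre than in Upk2-Cre mutants (difference -3.03, 95% interval -5.08 to -0.97, unadjusted p = 0.0064, adjusted p = 0.886 by limma), with means of -1.37 over 7 arrays and 1.66 over 5. It did not pass the correction, and was -1.38 on the G2600D arrays alone. Krt5-Cre R172H replicate 1 was not well above background for Chil3. The other 7 genes differed by -0.86 (Saa3) to 0.30 (Stfa1). The Saa3 value turned to 1.71 without the arrays that go against their sex label and to 0.15 without Krt5-Cre R270H replicate 1.

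Between alleles, the 8 genes differed by -0.81 (Stfa1) to 0.71 (Slpi) for R270H minus R172H, with adjusted p between 0.860 and 0.978 by limma. The Slpi difference turned to -0.38 with the scanner model as a block and to -0.85 on the G2505C arrays alone. All Upk2-Cre R270H arrays were read on G2505C and all Upk2-Cre R172H arrays on G2600D, so in that driver allele and scanner model cannot be told apart.

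The Trp53 het bladders, labelled with the mutant allele and given no tamoxifen, read lower than the 4 Cre control arrays for Slpi (-2.77, 95% interval -5.24 to -0.30, unadjusted p = 0.0299, adjusted p = 0.969 by limma). Trp53 het replicate 2, at 0.37, was the lowest BBN array for Slpi, and the difference was -1.37 without it. Chil3 differed by 2.28 (-0.35 to 4.91) and by 0.84 without Trp53 het replicate 1, Stfa1 by -1.74, S100a8 by -1.62, Ltf by 1.45, S100a9 by -0.98, Lcn2 by 0.73 and Saa3 by 0.67. No difference passed the correction. These comparisons share arrays with those above, so their values are not independent of each other.

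Over the 19 BBN arrays the 8 genes did not vary as 1 block. Of 28 pairs of genes, 16 correlated above 0 and 12 below, with a median Pearson r of 0.0626. Pearson and Spearman correlations were tested with 100000 permutations, two-sided, and p-values were adjusted over 44 relations, which are the 28 pairs and 16 relations with marker scores. The permutations treated the 19 arrays as exchangeable, regardless of group, slide, scanner model and shared animal code. Shifts between these therefore enter both the correlations and their p-values. Only 4 pairs passed by Pearson's r, and all 4 lie among S100a8, S100a9, Slpi and Stfa1.

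**Figure D3:**
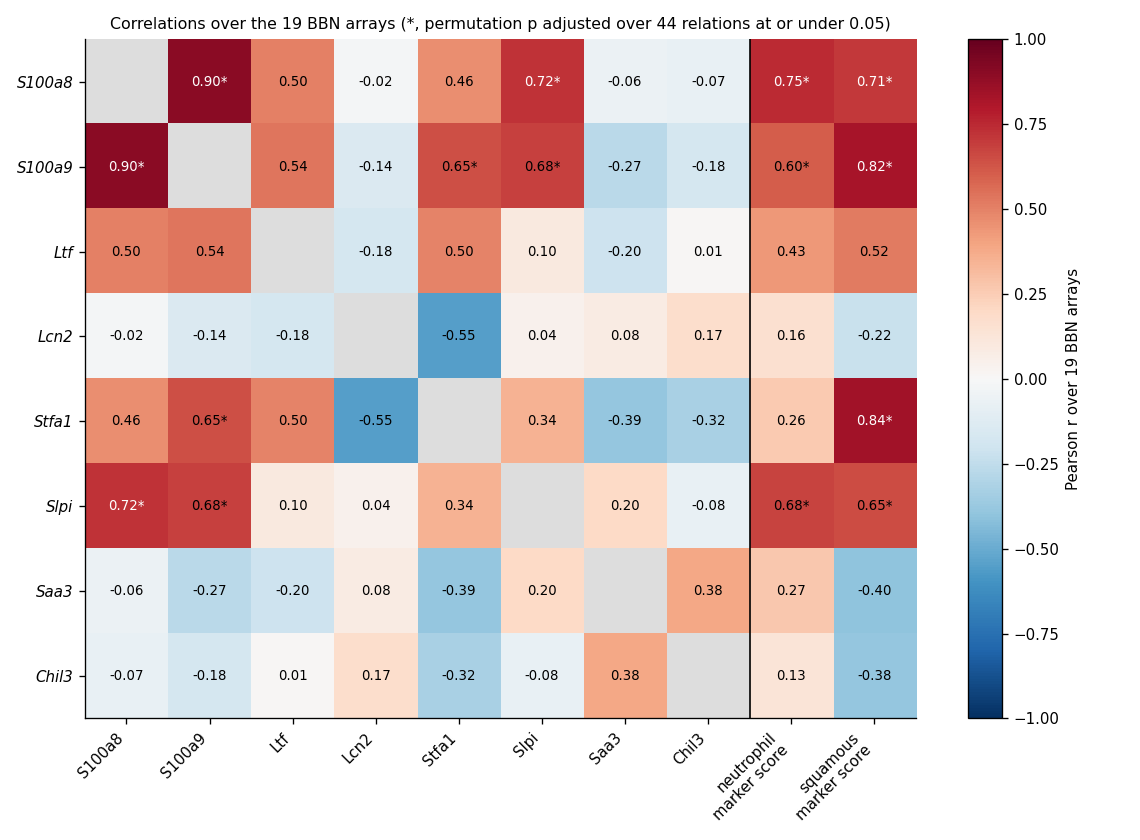
Pearson correlations among the 8 genes, and of each gene with the neutrophil and squamous marker scores, over the 19 BBN arrays. Asterisks mark an adjusted permutation p at or under 0.05. S100a8, S100a9 and Slpi correlate with each other, and S100a9 also with Stfa1. Ltf, Lcn2, Saa3 and Chil3 correlate with none of the others past the threshold.

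S100a8 and S100a9, which encode the subunits of 1 complex, had r = 0.901 and rho = 0.912 (adjusted permutation p = 0.00022 and 0.00044). The r was 0.904 on G2505C and 0.889 on G2600D arrays, and 0.881 without the 2 arrays farthest from the S100a8 median. S100a8 and Slpi had r = 0.719 and rho = 0.675 (adjusted permutation p = 0.00433 and 0.0140), with 0.755 and 0.510 on the 2 scanner models and 0.676 without the 2 farthest arrays. S100a9 and Slpi had r = 0.684 and rho = 0.646 (adjusted permutation p = 0.00693 and 0.0185), with 0.644 and 0.664 by scanner model and 0.576 without the 2 farthest arrays. S100a9 and Stfa1 had r = 0.648 and rho = 0.514 (adjusted permutation p = 0.00919 and 0.105), with 0.698 and 0.599 by scanner model and 0.533 without the 2 farthest arrays. The last relation rested in part on Krt5-Cre R172H replicate 3, without which r was 0.545 (adjusted permutation p = 0.0740). The lowest correlation was that of Lcn2 and Stfa1, r = -0.553 and rho = -0.261 (adjusted permutation p = 0.0604 and 0.460).

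A marker score averages, over the genes of a list, how far each lies on the log2 scale from its own BBN mean. The neutrophil score used 17 genes and the squamous score 23 genes of keratinising epithelium, none of them among the 8. S100a8 (r = 0.746), Slpi (0.676) and S100a9 (0.602) correlated with the neutrophil score, with adjusted permutation p = 0.00330, 0.00693 and 0.0285. Stfa1 (r = 0.842), S100a9 (0.820), S100a8 (0.709) and Slpi (0.653) correlated with the squamous score, with adjusted permutation p = 0.000293, 0.00022, 0.00433 and 0.0106. By Spearman's rho these relations were 0.719, 0.661 and 0.554 with the neutrophil score (adjusted permutation p = 0.00667, 0.0144 and 0.0690, so that S100a9 did not pass) and 0.761, 0.775, 0.716 and 0.711 with the squamous score, all past the threshold. Without the 2 arrays farthest in the gene's level, the Pearson values were 0.717, 0.588 and 0.437, and 0.724, 0.723, 0.694 and 0.7099. Ltf, Lcn2, Saa3 and Chil3 passed with neither score: with the squamous score their r was 0.523, -0.224, -0.400 and -0.384, and with the neutrophil score 0.430, 0.158, 0.266 and 0.132. The differences between these correlations were not tested. The Slpi correlation with the neutrophil score was 0.921 on G2505C and 0.233 on G2600D arrays. The S100a9 correlation with the neutrophil score did not pass with quantile scaling (r = 0.553) or in the deposited table (0.423), nor with arrays that share an animal code averaged (0.517), on G2505C (0.591) or G2600D (0.509) alone, or without Upk2-Cre replicate 2 (0.505), Krt5-Cre R270H replicate 1 (0.5685) or Krt5-Cre R172H replicate 3 (0.541). With only the 11 BBN arrays that match their sex label, 1 of the 44 relations passed, that of S100a8 and S100a9.

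**Figure D4:**
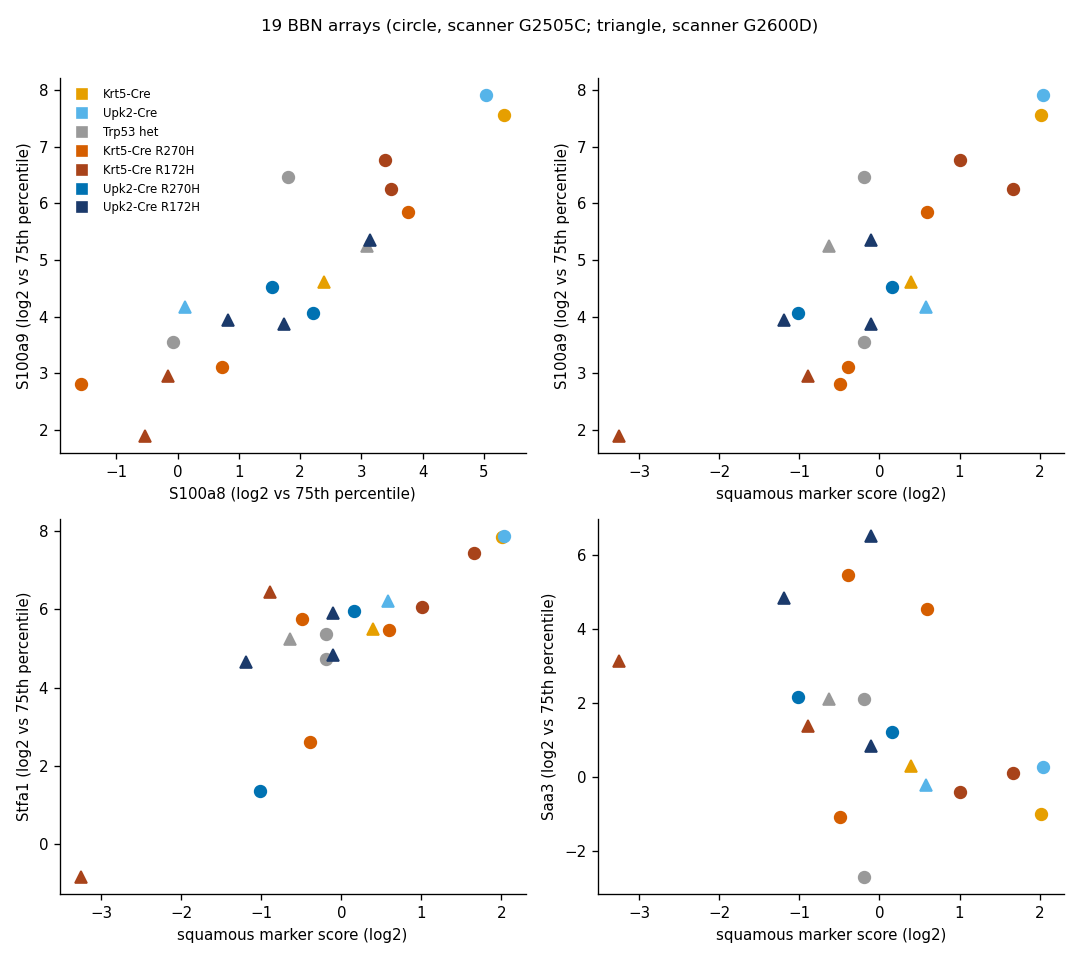
Levels on the 19 BBN arrays, coloured by group: S100a9 against S100a8, and S100a9, Stfa1 and Saa3 against the squamous marker score. S100a9 and Stfa1 are highest on the 2 arrays of highest squamous score, replicate 2 of each Cre control, and Saa3 is not.

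The squamous score ran from -3.25 on Krt5-Cre R172H replicate 3 to 2.04 on Upk2-Cre replicate 2, with 2.01 on Krt5-Cre replicate 2. Replicate 3 of Krt5-Cre R172H thus had the lowest S100a9, Ltf and Stfa1 of all BBN arrays, the lowest squamous score and the highest Lcn2. The part of squamous epithelium in these levels was not tested.

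By the highest Pearson r over the 19 arrays among all tested genes, given without a test, S100a8 was closest to S100a9 (0.901), the myosin gene Myo5b (0.853) and Mirt2 (0.840). S100a9 was closest to S100a8, Ablim1 (0.889) and Cyp3a13 (0.877). Stfa1 was closest to its relatives Cstdc5 (0.982) and Stfa3 (0.961) and to Teddm3 (0.947), and Saa3 to its relative Saa1 (0.904), Emilin2 (0.843) and Kcne3 (0.806). Probes of such relatives may read the same transcripts. Slpi was closest to the late cornified envelope genes Lce1b (0.882) and Lce1d (0.868) and to Rnf39 (0.876). Ltf was closest to Scin (0.831), Igfbp3 (0.809) and Lgals3 (0.795). Lcn2 was closest to the olfactory receptor genes Olfr1441 (0.827) and Olfr319 (0.774) and to Zfp956 (0.746), and Chil3 to Nbdy (0.758), Slc25a30 (0.727) and Cdkn1b (0.724).

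The relatives and partners of the 8 genes were then read for BBN minus normal, from lists given with all their tested members. Of these lists, 0 genes were called in the 6 comparisons among BBN groups. Counts are of genes past an adjusted p of 0.05 by limma, to be read beside 23.7% higher and 19% lower over all genes. The lowest signal well above background was -4.48 to -2.69 on G2505C arrays and -5.79 to -5.17 on normal arrays. A rise of a gene dim on both sides may rest in part on that difference, which was not tested. Genes above background on no normal array entered the test only through BBN arrays, and could hardly be counted as lower. Such genes were 6 of 12 upstream cytokines, 3 of 8 neutrophil attractants, 7 of 17 neutrophil markers and 5 of 12 other antimicrobial genes. Counts of 0 fallen genes in these lists were thus set in part by the filter. Minimum folds bound the normal side only. They are no strict bounds for genes also dim on BBN arrays, such as Chil1, Retnlg, Wfdc5 and Mmp8 (14, 15, 14 and 15 of 19 arrays above background). The same holds for Defb4 and Pglyrp4, above background on only 9 and 7 of the 19 BBN arrays. Falls can end in dim signal too. Among fallen genes, S100a5, Wfdc15b, Retnla, Cd163 and Mpo were above background on only 5, 7, 10, 10 and 11 of the 19 BBN arrays. The sizes of such falls are uncertain.

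**Figure D5:**
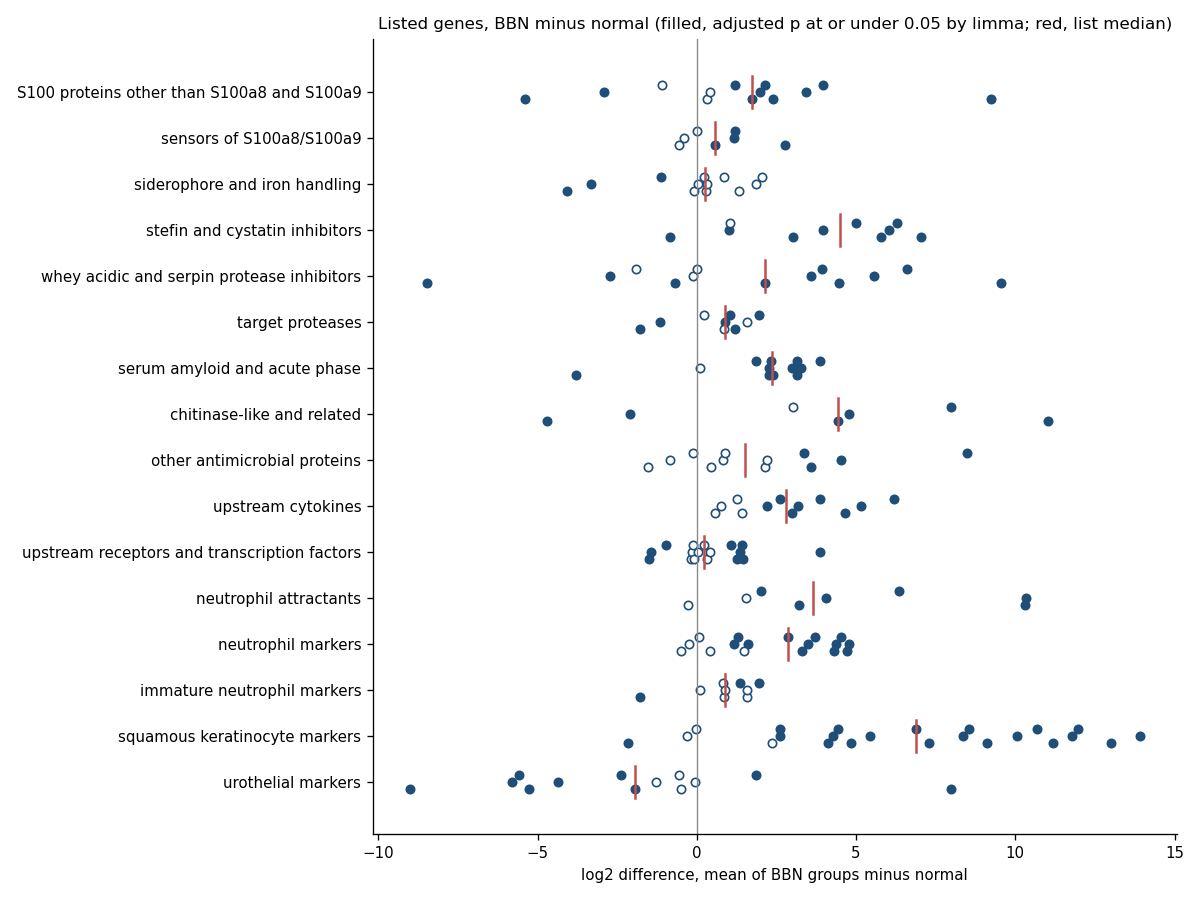
Log2 difference of each tested gene of 16 lists, mean of the BBN groups minus normal. Filled points passed limma's adjusted p of 0.05 and red bars are list medians. Median differences were 4.48 for stefins and cystatins and 0.26 for siderophore and iron handling genes.

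Of the 13 other S100 genes, 8 rose and 2 fell, with a median of 1.73. S100g, a vitamin D-dependent calcium-binding protein, was at least 136-fold higher, and S100a14 rose by 2.40. S100a5 (-5.39) and S100a1 (-2.91) fell. Of 7 genes that sense S100A8 and S100A9 or relay their signal, 4 rose (median 0.56): Emb (2.76), Ager, the receptor for advanced glycation end products (1.19), the lipopolysaccharide co-receptor Cd14 (1.16) and the adaptor Myd88 (0.56). That count was 2 without any 1 of the normal arrays. Tlr4 (-0.57) did not pass, and is named after its value was seen.

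Of 12 genes that handle iron or siderophores, partners of Ltf and Lcn2, 0 rose and 3 fell, with a median of 0.26: the lipocalin receptor Slc22a17 (-4.07), transferrin Trf (-3.32) and the iron exporter ferroportin Slc40a1 (-1.13). The hemoglobin-binding haptoglobin Hp differed by 2.06 and did not pass (adjusted p = 0.0837 by limma; named after its value was seen). The endocytic receptor Lrp2 did not pass either and was not well above background on any normal array. The count of risen genes was 1 or 2 when Krt5-Cre R270H replicate 1 or 2, or Krt5-Cre R172H replicate 3 or 4, was left out.

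Stefins related to Stfa1 are strong inhibitors of the same cathepsins. Of 10 stefins and cystatins, 8 rose and 1 fell, with a median of 4.48, or 2.85 with bounds for 6 genes that were not above background in normal bladders. Stfa3 rose by 7.03, and Csta2, Stfa2l1 and Cstdc4 were at least 52.9-fold, 18.0-fold and 14.4-fold higher. With the scanner block the count was 5, and it was 2 in the deposited table and with a stricter filter, which keep fewer of these genes. Among 13 whey acidic and serpin-type inhibitors related to Slpi by fold or function, 7 rose and 3 fell (median 2.13). Spink5, an inhibitor of skin kallikreins, was at least 204-fold higher, Serpinb3a at least 25.9-fold and Wfdc5 at least 10.7-fold, while Wfdc15b fell by 8.46. The 7 came to 3 with the scanner block.

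Among 9 proteases and granule enzymes that such inhibitors act on or accompany, 4 rose and 2 fell (median 0.87). Ctsc (1.21), which activates neutrophil serine proteases, and Ctsb (0.87) rose, and Ctsh (-1.17) and myeloperoxidase Mpo (-1.78) fell. The count of risen genes was 1 with quantile scaling and 2 without normal replicate 1 or 3.

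Of 12 serum amyloid and acute phase genes beside Saa3, 10 rose and 1 fell (median 2.35, or 1.56 with bounds). Socs3, a STAT3 feedback inhibitor, rose by 2.25 and Itih4 by 3.13, and the lipopolysaccharide binding protein Lbp fell by 3.79. Orm1 differed by 3.87, but was well above background on only 12 of the 19 BBN arrays. Also counted as risen, Fga, Orm2, Saa2, Fgg and Fgb were well above background on only 2, 5, 7, 7 and 9 of the 19 BBN arrays. The count of risen genes was 5 with quantile scaling and with the scanner block, and 4 without any 1 of the normal arrays. Of 7 chitinase-like and related genes, 4 rose and 2 fell (median 4.44, or 2.71 with bounds). Arginase Arg1, Chit1, Retnlg and Chil1 were at least 556-fold, 67.0-fold, 9.63-fold and 6.55-fold higher. Retnla (-4.70) and Ear2 (-2.08) fell, and are named after their values were seen. Arg1 and Retnla, like Chil3, are known markers of alternatively activated macrophages. In the authors' deposited table only 1 gene of this list could be tested, and 0 rose.

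Of 12 other antimicrobial genes, 4 rose and 0 fell (median 1.52, or 0.69 with bounds). Defb14, a beta-defensin, rose by 8.48 and Pglyrp1, a peptidoglycan-binding granule protein, by 4.51. Defb4 and Pglyrp4 were also called higher, with minimum folds of 3.35 and 2.72. Both genes were well above background on only 9 and 7 BBN arrays, so these folds are no strict bounds. Camp (0.82) and Ngp (0.89), secondary granule proteins like lactoferrin, did not pass and are named after their values were seen.

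Upstream, 8 of 12 cytokine genes rose and 0 fell (median 2.80, or 1.71 with bounds). Il1b rose by 4.64 and Tnf by 2.20, and Il1f9 was at least 17.8-fold higher. Csf2 differed by 2.97, but was well above background on only 9 of the 19 BBN arrays. Of 17 receptors and transcription factors, 6 rose and 3 fell (median 0.21). Il22ra1 (3.86), Nfkb1 (1.44) and Stat3 (1.43) rose, and the oncostatin receptor Osmr fell by 1.5005. Of 8 neutrophil attractants, 6 rose and 0 fell (median 3.64, or 2.87 with bounds): Ppbp rose by 10.34, and Cxcl5, Cxcl3 and Cxcl2 were at least 345-fold, 18.6-fold and 5.72-fold higher. The counts for cytokines and attractants were 3 and 3 in the deposited table, and 1 and 1 with the stricter filter.

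Markers of cell types that can hold these transcripts were read in the same way. Of 17 neutrophil markers, 12 rose and 0 fell (median 2.87, or 1.82 with bounds). Hdc rose by 4.31 and Fpr2 by 2.87, and Cxcr2 and Mmp8 were at least 7.48-fold and 5.55-fold higher. Csf3r (-0.25), Itgam (-0.49), Trem1 (0.07), Mmp9 (0.42) and Cxcr1 (1.49) did not pass, and are named after their values were seen. The count of risen markers was 6 in the deposited table and 5 with the stricter filter, which keep fewer of these genes. The summed level of these 17, in units of each array's 75th percentile, was 51.3 to 96.3 on normal and 49.7 to 171 on BBN arrays, so the sums, which bright genes carry, overlapped. The neutrophil scores, which weight genes equally, did not (-2.64 to -2.27 against -1.10 to 1.09), and 9 to 10 of the 17 were above background on a normal array and 10 to 17 on a BBN array. Of 9 markers of immature neutrophils, 2 rose and 1 fell. The risen were Cebpe (1.36) and Ctsg (1.96), well above background on only 10 and 2 of the 19 BBN arrays. When 1 array was left out, 0 to 4 rose (0 without normal replicate 1 or 3, 4 without Krt5-Cre R270H replicate 1). With quantile scaling or the scanner block, 0 rose. The sums of these markers overlapped (6.20 to 6.92 against 4.25 to 13.3). Of 23 squamous markers, 19 rose and 1 fell (median 6.88; 12 rose in the deposited table and 9 with the stricter filter), with Krt6a up by 12.996, Calml3 by 9.11, and Lgals7 and Dsg3 at least 1101-fold and 85.7-fold higher. Their sums did not overlap (142 to 168 against 186 to 3843). The squamous marker that fell was involucrin, Ivl (-2.15), and Sprr1a (-0.31), Tgm3 (-0.02) and Dsg1a (2.37) did not pass. All are named after their values were seen. Of 13 macrophage markers, 3 rose and 2 fell (median -0.25), which is about the share over all genes. Ly6c2 (1.83) and Cd68 (1.31) rose, and Cd163 (-2.79) and Mertk (-1.70) fell. Retnlg is on both the chitinase-like and the neutrophil list, and Camp, Ngp and Mpo are also on that of immature neutrophils. The part of each cell type in the levels of the 8 genes was not tested.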

How the data were processed

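Levels came from the deposited scanner files, which hold processed spot intensities from Feature Extraction 11.0.1.1, per the file headers (the submitters' processing notes name 9.1, and limma). The authors' deposited table of log2 values, with every column at the same maximum, ranked probes as the scanner files do and served as an alternative.

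Log2 processed signal minus the array's 75th percentile was used. Outlier spots and controls were left out, and the brightest probe stood for a gene. Genes well above background on at least 2 of 22 arrays were tested (17404). Limma 3.58.1 (R 4.3.3) fitted 8 group means over all arrays, and a side of a contrast is the mean of its group means. Benjamini-Hochberg adjusted p-values at or under 0.05 were called. The fit was tested on simulated data.

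The 8 genes, the lists and the tests were chosen with earlier results of these data known. All 8 genes are named, and up to 4 genes of smallest p per list. Further list genes are named after their values were seen. Same-numbered arrays across groups correlated at a median of 0.0275 in their deviations, from -0.478 to 0.556, with 20 of 66 pairs over 0.1. The main fit did not treat numbers as pairs, but a median cannot show that no numbers are related. In Krt5-Cre, Upk2-Cre and Trp53 het, replicate 1 was read on G2600D and replicate 2 on G2505C, so there the number follows the scanner model. Python 3.11.15, numpy 2.4.6, pandas 2.3.3, scipy 1.17.1 and matplotlib 3.10.9 did the rest. No genome was used. Promoters came from RefSeq on GRCm38.p6.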

Additional observations from a re-analysis of the deposited data

Results flagged for a closer look

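In Krt5-Cre R172H, the only group of 4 arrays, each gene's highest and lowest array was compared with the others by Dixon's ratio. Replicate 3 stood apart for Ltf (3.14, against 7.55 to 7.72) and for Stfa1 (-0.84, against 6.07 to 7.45). The other 6 genes showed no such array in that group. This ratio marks about 1 in 20 groups by chance, and 8 were tested. On the same array the squamous marker score was the lowest of the 19 BBN arrays, and the part of that in both values was not tested.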

How the results depend on the processing

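The number of called genes for BBN minus normal (7432) was 4586 with a stricter filter and 5059 to 8142 without 1 array. The split of higher and lower genes was 3238 and 3739 with quantile scaling, 2557 and 2638 with the scanner block, and 2874 and 3104 in the deposited table. For the 8 genes this difference kept its sign in every alternative that gave a value. They were picked on this difference, so that is no test of it. The stricter filter gave none for Ltf, Stfa1, Saa3 and Chil3. It was 10.30 for Ltf, 3.12 for Lcn2 and 8.49 for Stfa1 with normexp background, where Saa3 was 4.65 and Chil3 3.67, and 3.997 for Slpi as the mean of its probes. Ltf and Stfa1 have no value in normal bladders in the deposited table.

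Among BBN groups 0 of the 8 genes were called without any 1 array (0 to 0), and 1 (Slpi) on G2600D arrays alone. For Krt5-Cre mutants against Krt5-Cre the count of all genes (2) was 0 with normexp, mean of probes, only the arrays compared, only arrays matching their sex label and G2505C alone, 1 with no filter, 5 with quantile scaling, 5 with the scanner block and 280 on G2600D, and 0 to 4 without 1 array. For Upk2-Cre mutants against Upk2-Cre the count (1) was 0 with normexp, quantile scaling, the deposited table, no filter, the stricter filter, only the arrays compared, shared animal codes averaged, only arrays matching their sex label and G2505C, 33 on G2600D, and 0 to 2 without 1 array. For the difference of these effects (0) it was 1 in the deposited table, 26 on G2600D and 0 to 1 without 1 array. For Krt5-Cre against Upk2-Cre mutants (1) it was 0 with normexp, the deposited table, the stricter filter, only the arrays compared, only arrays matching their sex label and G2505C, 2 with the scanner block, 3 with animal codes averaged, 4 on G2600D and 0 to 3 without 1 array. For R270H against R172H (0) it was 21 in the deposited table, 17 with the scanner block, 1 with the slide as a random block and 0 to 134 without 1 array, the highest without Krt5-Cre R270H replicate 3. For Trp53 het against the Cre controls (0) it was 1 with quantile scaling, 17 with the scanner block, 1 on G2505C, 15 on G2600D and 0 to 1 without 1 array. The settings with only 1 scanner model were chosen after the data were seen, and the cause of these moves was not tested.

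With the replicate number as a block, BBN minus normal had 7369 calls, and the comparisons with 2, 1 and 1 calls had 0, 0 and 0. It changed no call of the 8 genes.

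The sign turned for S100a8 in the difference of effects (0.025 on G2505C, and -4.37 to 0.54 without 1 array, the highest without Upk2-Cre replicate 1), for Saa3 between drivers (1.71 with only arrays matching their sex label, and -1.67 to 0.15 without 1 array, the highest without Krt5-Cre R270H replicate 1), for Slpi between alleles (-0.38 with the scanner block, -0.85 on G2505C) and for Stfa1 between alleles (-1.96 to 0.34 without 1 array, the highest without Upk2-Cre R270H replicate 1). None of these was called. Of 44 correlations, 11 passed. That was 1 with only arrays matching their sex label, 7 on G2505C, 0 on G2600D and 9 to 17 without 1 array. Those 3 settings have 11, 11 and 8 arrays.

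With 2 to 4 arrays a group, differences of several-fold could not be told from the spread. The normal group and its slide cannot be told apart, and levels of Ltf and Stfa1 in normal bladders are bounds. Saa3 and Chil3 were well above background on 1 of 3 normal arrays, so their differences rest in part on dim signal.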

Other observations

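Markers of cells outside the host defence lists also differed between BBN and normal bladders. Of 13 urothelial markers, 7 fell and 2 rose (median -1.94): Upk3a by -9.02, Upk2 by -5.81 and Upk1a by -5.27, while the basal keratin Krt14 rose by 7.97 (limma, all called). All 8 smooth muscle markers rose (median 2.24), among them Des (3.76), Cnn1 (3.75), Myh11 (2.52) and Tagln (2.20). That count was 5 with quantile scaling, 5 without normal replicate 1 or 2 and 4 without normal replicate 3. The smooth muscle sums ran from 49.96 to 95.2 on normal and from 95.8 to 1100 on BBN arrays.

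Mast cell and eosinophil markers were dim: 1 of 6 rose, the mast cell tryptase Tpsb2 (2.07), and Siglecf (0.51), Ccr3 (1.21) and Cpa3 (-0.98) did not pass.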
